A study of Mus musculus with 6 samples.

Results

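Interferon-stimulated genes were followed in RNA of cells from the colonic lamina propria, the connective tissue layer beneath the gut epithelium. The set held 35 genes chosen by symbol, and each symbol matched 1 of the 55401 gene rows. All animals were male, 5 to 6 weeks old and of the genotype Apc Min/+, in which 1 copy of the tumour suppressor gene Apc is truncated and intestinal adenomas form. One group of 3 libraries came from mice gavaged with vehicle (2% Tween 80), and the other group of 3 from mice gavaged with atorvastatin, an inhibitor of cholesterol synthesis, at 20 mg/kg every other day. Housing and pooling of animals were not given in the sources used here. Nothing in the labels ties the libraries of a group to separate mice, so the p-values describe the spread of these 6 libraries and this spread may be technical.

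Type I interferons bind the receptor IFNAR and activate a complex of STAT proteins with IRF9, which binds the interferon-stimulated response element (ISRE) in the promoters of antiviral genes. Interferon gamma binds a separate receptor, and its signal acts through the gamma-activated site (GAS) in the promoters of genes for chemokines, guanylate-binding proteins and immunity-related GTPases. The responses overlap, since IRF1 and other factors induced by interferon gamma also act on ISRE sequences. In the colon, interferon-stimulated genes are active in epithelial, stromal and immune cells and respond to the microbiota. Gene classes were contrasted here, with names taken from the symbols alone. The type I class held 12 genes (Ifit, Oas, Mx and Isg symbols), the interferon-gamma class held 10 genes (Gbp, Cxcl9 to Cxcl11 and GTPase symbols), and 13 genes fell in neither class.

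No member differed between atorvastatin and vehicle in limma's test over 13590 genes. All 35 members reached the filter of 1 FPKM (fragments per kilobase of gene, scaled to the size of the library) in at least 3 libraries, and 0 passed a false discovery rate of 0.05, the same as over all genes (0.0%). At an unadjusted p under 0.05, 0 of 35 members passed, where 7.17% of all genes did (4.04% lower and 3.13% higher). The atorvastatin values were lower on average for 25 members and higher for 10, and 53.0% of all genes tested had a lower value. Among 1738 genes with mean levels between 23.5 and 298 FPKM, the range of the middle members, 59.1% had a lower value. The median difference of log2(FPKM + 1), atorvastatin minus vehicle, was -0.11 over the members, -0.02 over all genes and -0.05 over those 1738 genes. Without atorvastatin library 2 the members' median was 0.01, with 15 members lower, and without vehicle library 2 it was -0.20, with 32 lower. With libraries scaled to equal sums it was -0.04, with 19 lower, while the median over all genes was 0.04.

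**Figure D1:**
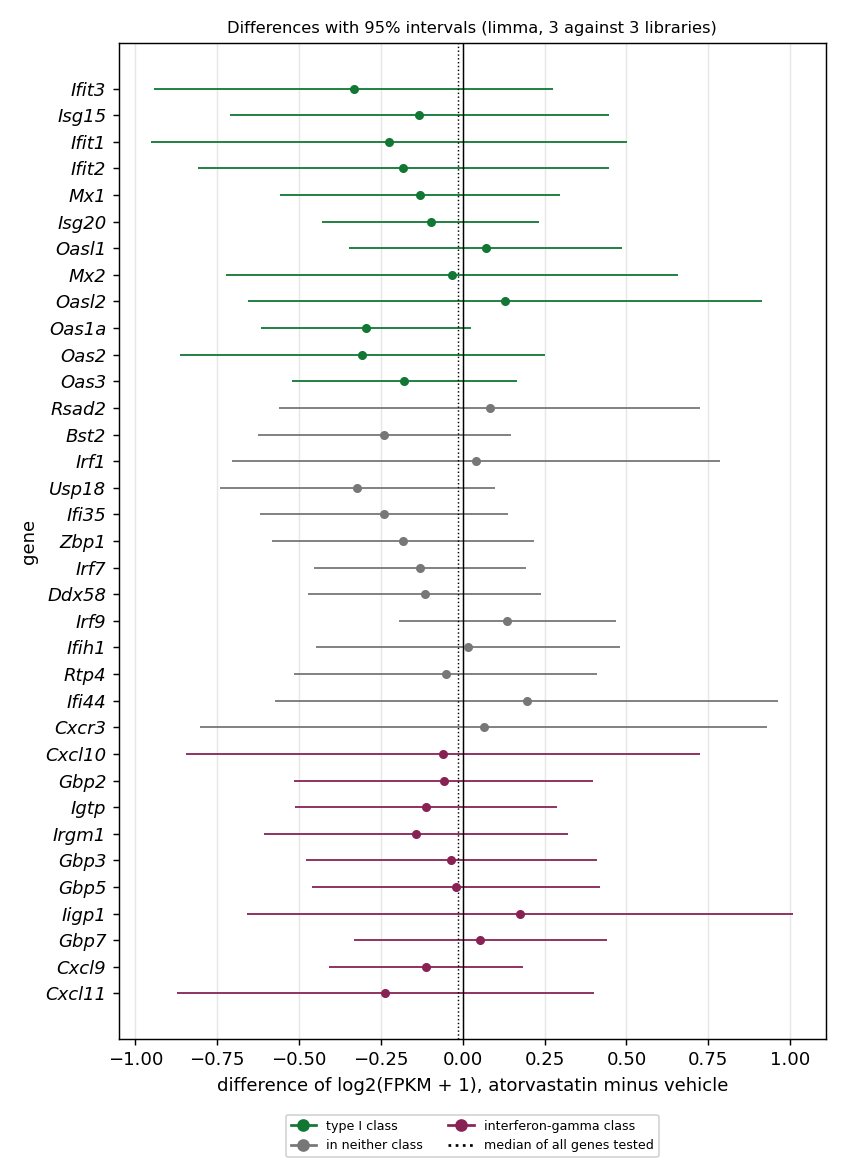
Difference of log2(FPKM + 1) between atorvastatin and vehicle for each of the 35 genes, with its 95% interval from limma (3 against 3 libraries), coloured by class. All 35 intervals include 0, and 34 of them lie within 1 log2 unit of it.

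The type I class had a median difference of -0.16, with 10 of 12 genes lower, and the interferon-gamma class one of -0.06, with 8 of 10 lower. The sign of the interferon-gamma median turned with equal sums per library (0.01), with equal sums after leaving out immunoglobulin genes (0.03), and without vehicle library 3 (0.01) or atorvastatin library 2 (0.07). The type I median stayed negative in each of these, between -0.09 and -0.01. The median over all genes was -0.02 as deposited, 0.04 with equal sums and 0.06 with equal sums without immunoglobulin genes. The gap between the class medians, type I minus interferon gamma, was -0.10, against a spread between libraries of a group of 0.09 (SD, log2). Taken per library, as the median deviation of the members from their own means, that gap was -0.01, 0.16 and 0.15 with vehicle and 0.05, -0.05 and -0.12 with atorvastatin. The groups overlapped, because vehicle library 1 lay below atorvastatin library 1. With both libraries numbered 2 left out, an alternative chosen after the data were seen, the gap was -0.02.

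The spread between libraries of a group had a higher median for these genes than for all genes tested. The pooled within-group SD of log2(FPKM + 1) had a median of 0.24 over the members and 0.19 over all genes tested. Over the 1738 genes of similar level the median was 0.205. Among the members it was 0.32 in the type I class and 0.24 in the interferon-gamma class. This order did not hold when the members in neither class were also assigned to a class. The median was then 0.22 over 23 type I genes and 0.24 over 12 interferon-gamma genes. For 34 of the 35 members (97.1%) the 95% interval stayed within 1 log2 unit of 0. The same held for 89.8% of all genes and 86.0% of the 1738 genes of similar level. The exception among the members was Iigp1, with an interval from -0.66 to 1.01. The interval stayed within a 1.5-fold change either way for 16 members (45.7%) and for 60.4% of all genes. Among the 1738 genes of similar level this share was 47.9%, close to that of the members. Differences smaller than these intervals were not detectable with 3 libraries a group.

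Summed FPKM ran from 355787 to 456064, and 13303 to 13703 genes had 1 FPKM or more. Vehicle library 3 stood apart, with a mean Pearson's r of log2(FPKM + 1) to the other libraries of 0.944 against 0.957 to 0.961 for the rest. Ptprc, the pan-leukocyte gene, had 13.9 to 19.5 FPKM. Listed B cell, T cell and macrophage markers were measured in every library, and 8 epithelial markers summed to 16.7 to 42.2 FPKM. B cell markers, 6 in all, summed to 331.7 to 445.4 FPKM with vehicle and 266.9 to 284.5 with atorvastatin. These sums did not overlap. Gene by gene, the groups did not overlap in 5 of the 6, all lower with atorvastatin, as in 8.85% of all genes tested. All tested macrophage (8) and endothelial (5) markers were higher with atorvastatin, and all tested epithelial (5), neutrophil (4) and NK cell (3) markers lower. The other marker lists went both ways. The part of these markers in the members' values was not tested. The 7 markers listed for plasmacytoid dendritic cells, the main producers of interferon alpha, summed to 95.02 to 151.7 FPKM with vehicle and 70.7 to 111.4 with atorvastatin, mostly from Ly6d. Siglech, a defining marker among them, had 0 to 0.11 FPKM. In bulk RNA, fewer cells of a type and less RNA per cell cannot be told apart.

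The promoters of the members held ISRE letters more often than GAS letters. RefSeq windows of 250 bases before to 50 after the start site (GRCm38.p6) matched 27 of the 35 members. The table gave none for Mx1, Mx2, Oas2, Usp18, Zbp1, Rtp4, Cxcl11 and Iigp1. The ISRE core, TTTCNNTTTC or GAAANNGAAA so that both strands were searched, was found in 16 of 27 members (59.3%) and in 3.99% of 27025 genes. The GAS letters, TTCNNNGAA, which read the same on both strands, were found in 9 of 27 members (33.3%) and in 9.55% of all genes. An ISRE core lay in 5 of the 9 type I members with a window and in 7 of the 8 interferon-gamma members. The GAS letters lay in 3 of the 9 type I members and in 3 of the 8 interferon-gamma members. Both motifs occurred in 5 members (Bst2, Gbp5, Gbp7, Igtp and Oas1a), and neither in Cxcl9, Cxcr3, Ifi44, Irf7, Irf9, Oasl1 and Oasl2. The ISRE and a GAS match overlapped only in Bst2. A match is a string of letters and not a measured binding site.

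**Figure D2:**
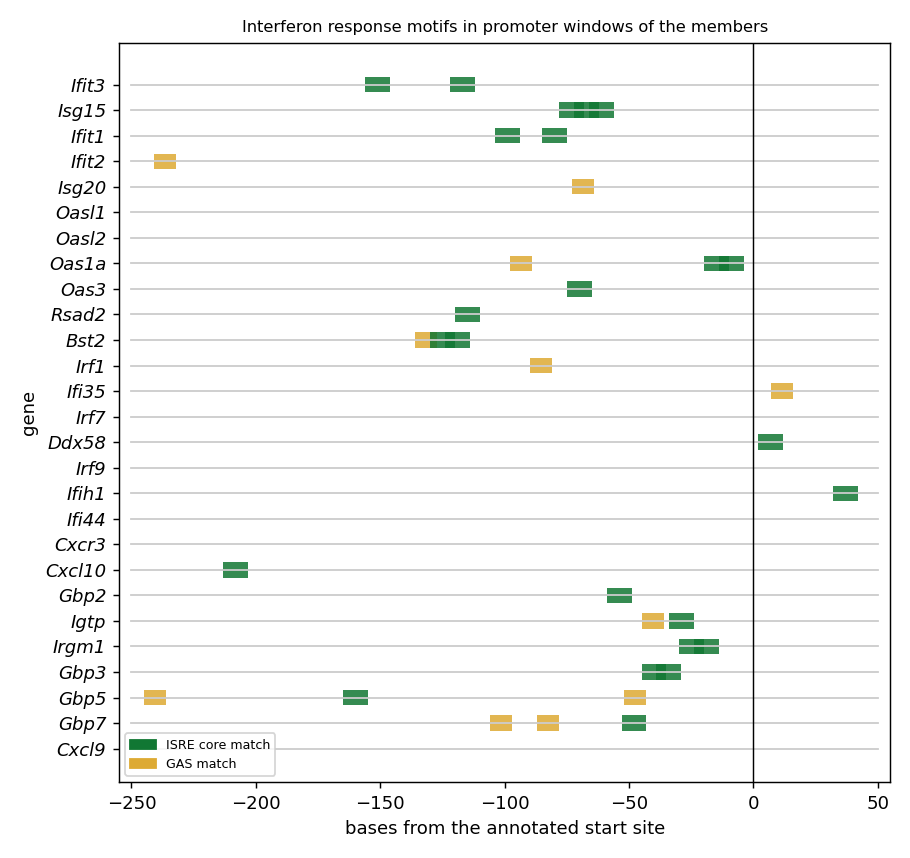
Positions of ISRE core and GAS matches in the promoter windows of the 27 members with a RefSeq window, in bases from the annotated start site (vertical line). Green boxes are ISRE cores, which occur in 16 genes, and yellow boxes are GAS matches, which occur in 9.

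The windows of the most abundant member of 6 role groups are shown, with motif matches in capitals. Of the most abundant members of the role groups not shown, Rsad2 had 1 ISRE core and Oasl1 had neither motif. Mx1 and Zbp1 had no window. Isg15 (chr4:156200769-156201068, minus strand) held 3 overlapping ISRE cores that began 78, 72 and 66 bases before the start. Ifit3 (chr19:34583279-34583578, plus strand) held 2 separate cores, 156 and 122 bases before it. Cxcl10 (chr5:92348840-92349139, minus strand) had 1 core at 213 bases and Gbp2 (chr3:142620413-142620712, plus strand) 1 at 59 bases. Igtp (chr11:58199306-58199605, plus strand) had a GAS match at 45 bases next to a core at 34 bases. Irf1 (chr11:53769764-53770063, plus strand; the first of 2 windows) had a GAS match at 90 bases and no ISRE core.
Isg15: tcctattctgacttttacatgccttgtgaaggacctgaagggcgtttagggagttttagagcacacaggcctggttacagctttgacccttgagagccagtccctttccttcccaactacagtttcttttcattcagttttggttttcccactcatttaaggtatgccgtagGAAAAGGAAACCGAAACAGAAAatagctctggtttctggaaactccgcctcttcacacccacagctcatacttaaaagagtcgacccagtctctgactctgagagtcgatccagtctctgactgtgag
Ifit3: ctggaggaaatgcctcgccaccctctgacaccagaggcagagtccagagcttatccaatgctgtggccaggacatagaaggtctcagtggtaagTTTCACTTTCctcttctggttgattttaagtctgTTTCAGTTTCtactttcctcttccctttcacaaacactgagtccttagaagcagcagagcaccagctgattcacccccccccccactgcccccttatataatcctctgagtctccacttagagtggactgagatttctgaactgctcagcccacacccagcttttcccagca
Cxcl10: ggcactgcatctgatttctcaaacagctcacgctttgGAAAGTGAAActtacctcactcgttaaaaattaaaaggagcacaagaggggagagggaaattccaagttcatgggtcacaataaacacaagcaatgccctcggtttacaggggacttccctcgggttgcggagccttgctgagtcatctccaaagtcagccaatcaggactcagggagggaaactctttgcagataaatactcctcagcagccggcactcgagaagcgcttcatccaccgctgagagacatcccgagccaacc
Gbp2: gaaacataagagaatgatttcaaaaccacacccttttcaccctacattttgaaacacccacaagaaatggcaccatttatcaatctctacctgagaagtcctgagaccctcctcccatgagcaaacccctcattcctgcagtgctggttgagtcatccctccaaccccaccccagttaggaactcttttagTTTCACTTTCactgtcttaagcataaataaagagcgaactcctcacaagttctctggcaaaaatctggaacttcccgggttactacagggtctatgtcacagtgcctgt
Igtp: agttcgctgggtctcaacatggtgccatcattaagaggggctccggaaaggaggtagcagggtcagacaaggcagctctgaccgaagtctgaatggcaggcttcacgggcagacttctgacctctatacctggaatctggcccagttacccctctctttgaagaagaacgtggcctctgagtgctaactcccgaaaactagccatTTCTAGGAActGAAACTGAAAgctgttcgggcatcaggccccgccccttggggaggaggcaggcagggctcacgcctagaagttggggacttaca
Irf1: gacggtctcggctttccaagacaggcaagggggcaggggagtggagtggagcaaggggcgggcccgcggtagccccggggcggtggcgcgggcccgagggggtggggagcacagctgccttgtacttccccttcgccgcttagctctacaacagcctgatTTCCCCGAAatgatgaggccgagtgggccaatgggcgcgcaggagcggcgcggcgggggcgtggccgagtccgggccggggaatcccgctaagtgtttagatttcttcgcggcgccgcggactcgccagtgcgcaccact

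Levels spanned a wide range, from a mean of 2.95 FPKM for Cxcr3 to 551 FPKM for Cxcl10 over the 6 libraries. Cxcl10, Ifit3, Isg15, Ifit1 and Gbp2 were the 5 most abundant members. Only Cxcr3, Ifi44 (5.64 FPKM) and Cxcl11 (6.63 FPKM) had means under 10 FPKM. The 3 at the top differed by less than their spread over libraries, since Cxcl10 ranged from 377 to 770.2 FPKM, Ifit3 from 279 to 569 and Isg15 from 328 to 539.

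**Figure D3:**
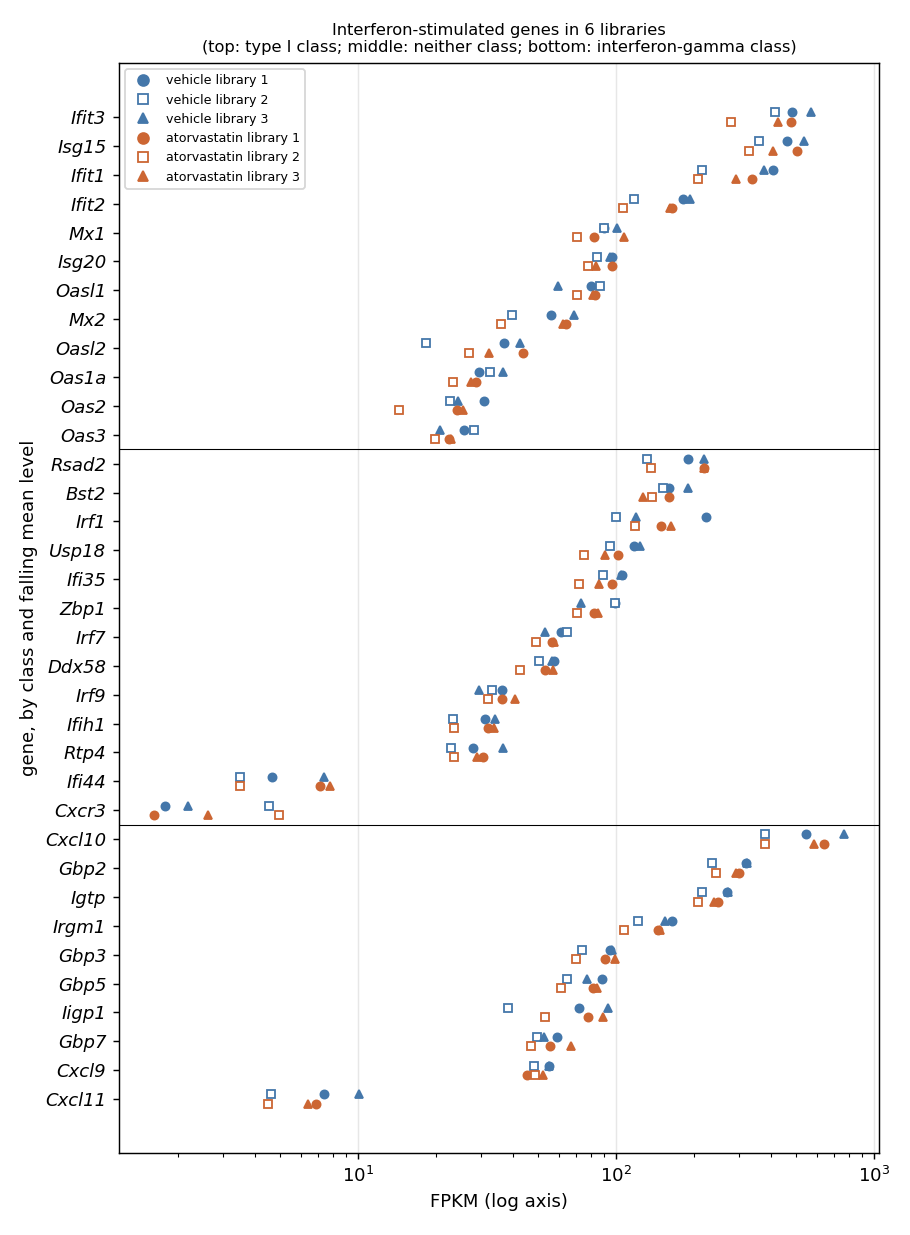
FPKM of the 35 genes in each library on a log axis, with vehicle libraries in blue and atorvastatin libraries in orange; open squares are the libraries numbered 2. The open squares lie at the left end of both groups for 25 genes, and only Cxcr3 has them at the right end of both.

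One pattern ran across libraries and not across treatments. In 27 of 35 members vehicle library 2 was the lowest vehicle library, as in 31.9% of all genes, and in 32 atorvastatin library 2 was the lowest of its group, as in 51.4% of all genes. Both held for 25 members (71.4%), against 20.3% of all genes and 32.8% of 1738 genes with mean levels between 23.5 and 298 FPKM, the range of the middle members. Among listed response genes that are no members, it held for 19 of 37 type I genes (51.4%) and 9 of 24 interferon-gamma genes (37.5%). In the latter, vehicle library 3 was the lowest vehicle library in 12 of the 24 genes and vehicle library 2 in 10. The count was 25 with median-of-ratios scaling (17.1% of all genes), 28 with equal sums (27.8%) and 21 with equal sums without immunoglobulin genes (10.7%). Every type I gene lay below its own mean in atorvastatin library 2, and every interferon-gamma gene did so in both libraries numbered 2. Of all 13590 genes tested, 8676 lay below their own mean in atorvastatin library 2 and 5990 in vehicle library 2. The type I class had median deviations of 0.14, -0.07 and 0.32 with vehicle and 0.125, -0.36 and -0.004 with atorvastatin. In the interferon-gamma class they were 0.14, -0.23 and 0.16 with vehicle and 0.08, -0.30 and 0.11 with atorvastatin. The labels do not say that the number marks a shared day, litter or batch.

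**Figure D4:**
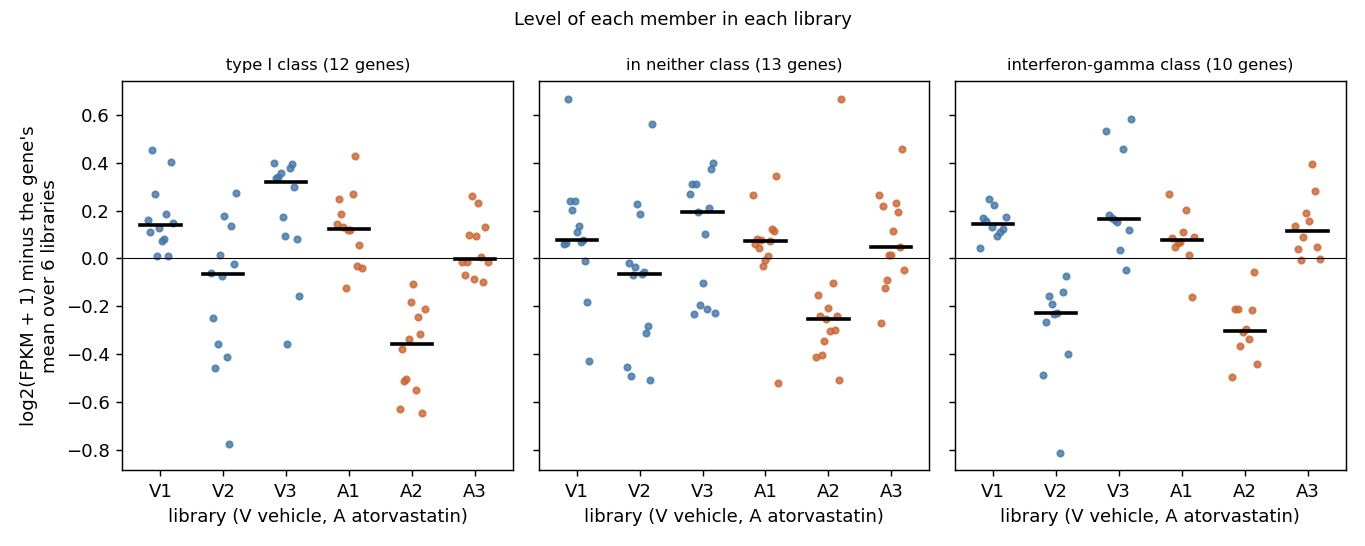
Deviation of log2(FPKM + 1) from the gene's mean over 6 libraries, for each member (points) in vehicle libraries V1 to V3 and atorvastatin libraries A1 to A3, with the median as a black bar. A2 has the lowest median in all 3 panels (-0.36, -0.255 and -0.30), and V2 the next lowest.

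Several other measures moved with these libraries, though not all with both. Immunoglobulin genes took 38.4% of summed FPKM in vehicle library 2 and 35.6% and 30.4% in the other vehicle libraries, and 47.9% in atorvastatin library 2 against 30.2% and 27.9%. The 8 T cell markers summed to 81.9 FPKM in vehicle library 2, the top of a vehicle range from 62.6, and to 70.9 in atorvastatin library 2, the top of a range from 60.3. The 8 epithelial markers summed to 27.1, 41.5 and 40.3 FPKM with vehicle and 20.5, 42.2 and 16.7 with atorvastatin. Summed markers of NK cells, dendritic cells and plasmacytoid dendritic cells were also the highest of their group in both libraries numbered 2. The dendritic cell sum came mostly from Ccr7 and the plasmacytoid sum mostly from Ly6d. Gene by gene, 3 of the 7 dendritic cell markers were highest in both. Summed B cell markers were highest in vehicle library 2 (445.4 FPKM) but lowest of their group in atorvastatin library 2 (266.9 FPKM). Summed macrophage markers were the middle value of their group in both. All 6 fibroblast markers were lowest in atorvastatin library 2 within its group, but only 2 of the 6 were lowest in vehicle library 2. Summed fibroblast markers had 816.7 FPKM in vehicle library 2, between 723.2 and 924.2 in vehicle libraries 1 and 3. The part of these measures in the level of the interferon-stimulated genes was not tested.

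The IFIT proteins bind foreign RNA and block its translation, and their genes lie side by side on chromosome 19 (34550694 to 34650009, mm10). Ifit3 (ENSMUSG00000074896) had 483, 414 and 569 FPKM with vehicle and 477, 279 and 427 with atorvastatin. Its difference of -0.33 (SE 0.26, limma adjusted p = 0.760) was the most negative of all members, yet atorvastatin libraries 1 and 3 lay within the vehicle range. Ifit1 (ENSMUSG00000034459) had 407, 215 and 375 FPKM with vehicle and 338, 208 and 293 with atorvastatin, a difference of -0.22 (SE 0.31, limma adjusted p = 0.868). Vehicle library 2 was as low as atorvastatin library 2 here. Ifit2 had 182, 118 and 194 FPKM with vehicle and 165, 106 and 162 with atorvastatin. In all 3 genes both libraries numbered 2 were the lowest of their group. Ifit3 has a near copy, Ifit3b, which can share reads with it and had 132 to 162 FPKM with vehicle and 85.01 to 135 with atorvastatin.

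OAS enzymes sense double-stranded RNA and make the second messenger that activates RNase L, while OASL1 restrains translation of Irf7 mRNA. Oasl1 (ENSMUSG00000041827), the most abundant, had 80.2, 86.5 and 59.4 FPKM with vehicle and 82.95, 70.8 and 81.4 with atorvastatin (difference 0.07, SE 0.18). The low value was vehicle library 3. Oasl2 (ENSMUSG00000029561) had 36.8, 18.4 and 42.6 FPKM with vehicle and 43.7, 27.0 and 32.3 with atorvastatin (difference 0.13, SE 0.33). Its difference was -0.23 without vehicle library 2 and -0.05 without atorvastatin library 1. Although Oasl1 and Oasl2 are neighbours on chromosome 5 (114896936 to 114937915), vehicle library 2 was the highest of its group for Oasl1 and the lowest for Oasl2.

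Oas1a (ENSMUSG00000052776) was the 1 member whose groups did not overlap, named after its values were seen. It had 29.6, 32.4 and 36.4 FPKM with vehicle and 28.8, 23.4 and 27.4 with atorvastatin, with a difference of -0.30 (SE 0.13, limma adjusted p = 0.696). That is 1 of 35 members with all atorvastatin values below all vehicle values, where 8.85% of all genes tested had this. The reverse order was found in 0 members and in 5.53% of all genes. The closest values of the groups, 28.8 and 29.6 FPKM, almost touched. Oas2 had 30.9, 22.8 and 24.52 FPKM with vehicle and 24.1, 14.4 and 25.5 with atorvastatin (difference -0.31, SE 0.23). Oas3 had 25.8, 28.3 and 20.7 with vehicle and 22.55, 19.9 and 22.9 with atorvastatin. Its difference of -0.18 became -0.30 without vehicle library 3, with an unadjusted p of 0.0439 and an adjusted p of 0.587 in limma. This was the only case of an unadjusted p under 0.05 among the members in any fit run. Oas1a, Oas2 and Oas3 lie together on chromosome 5 (120730333 to 120907521), and Oas1a can share reads with its copy Oas1g, which had 4.23 to 5.82 FPKM.

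Mx proteins are dynamin-like GTPases that trap viral components. Mx1 (ENSMUSG00000000386) had 90.01, 90.3 and 101 FPKM with vehicle and 82.1, 70.7 and 107 with atorvastatin (difference -0.13, SE 0.18), and both the highest and the lowest value were in atorvastatin libraries. Mx2 (ENSMUSG00000023341) had 55.95, 39.4 and 69.0 FPKM with vehicle and 63.9, 35.8 and 62.3 with atorvastatin (difference -0.03, SE 0.29). The reference annotation types Mx2 as a polymorphic pseudogene, since inbred strains can carry a broken copy, and its RNA was measured in every library. Both genes lie on chromosome 16 (97447035 to 97560900).

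ISG15 is a ubiquitin-like protein that is joined to other proteins, and USP18 removes it and also blocks signalling at IFNAR. Isg15 (ENSMUSG00000035692, chromosome 4, 156199455 to 156200796) had 460.2, 358 and 539 FPKM with vehicle and 506, 328 and 406 with atorvastatin (difference -0.13, SE 0.24). The groups overlapped over most of their range. Usp18 (ENSMUSG00000030107) had 118, 94.6 and 124 FPKM with vehicle and 102, 75.0 and 91.05 with atorvastatin. Its difference of -0.32 (SE 0.18, limma adjusted p = 0.700) was the next most negative after Ifit3, and atorvastatin library 1 exceeded vehicle library 2.

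The sensors of foreign nucleic acid feed back on interferon production. Zbp1, which senses Z-form nucleic acid, had 99.5, 98.8 and 73.4 FPKM with vehicle and 82.2, 70.4 and 85 with atorvastatin (difference -0.18, SE 0.17). Ddx58, which encodes RIG-I, had 57.7, 50.2 and 56.5 against 52.95, 42.4 and 57.0 (difference -0.12, SE 0.15). Ifih1, which encodes MDA5, had 30.9, 23.4 and 34.1 against 32.03, 23.6 and 33.7, nearly the same 3 values in both groups (difference 0.01, SE 0.20). Their limma adjusted p lay between 0.802 and 0.991.

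Among other antiviral effectors, Rsad2, which encodes viperin, had 189.5, 132 and 219 FPKM with vehicle and 219, 136 and 219 with atorvastatin (difference 0.08, SE 0.27). Both libraries numbered 2 were well below the other 4. Bst2, or tetherin, which holds budding virions on the cell and also marks plasmacytoid dendritic cells, had 161, 152 and 191 FPKM with vehicle and 161, 138 and 128 with atorvastatin (difference -0.24, SE 0.16). It was 1 of 3 members in which atorvastatin library 2 was not the lowest of its group, with Cxcl9 and Cxcr3. The exonuclease gene Isg20 varied little, from 78.1 to 97.0 FPKM over all libraries (difference -0.10, SE 0.14). Ifi35 had 89.4 to 106 FPKM with vehicle and 71.9 to 96.7 with atorvastatin (difference -0.24, SE 0.16), and Rtp4 22.85 to 36.6 and 23.55 to 30.5 (difference -0.05, SE 0.19). Ifi44 had 4.62, 3.48 and 7.41 FPKM against 7.09, 3.48 and 7.76, the same value in both libraries numbered 2, and the largest positive difference of all members (0.19, SE 0.32, limma adjusted p = 0.889).

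Interferon regulatory factors transmit and amplify the response. Irf1 (ENSMUSG00000018899, chromosome 11, 53770014 to 53777323), a GAS-driven factor, had 224, 99.7 and 120 FPKM with vehicle and 149, 119 and 164 with atorvastatin (difference 0.04, SE 0.31). Vehicle library 1 was far above the other vehicle libraries, and the difference ran from -0.20 without vehicle library 2 to 0.38 without vehicle library 1. Irf7, which drives interferon alpha genes, had 61.3, 64.7 and 52.9 FPKM with vehicle and 56.6, 49.1 and 57.3 with atorvastatin (difference -0.13, SE 0.14). Irf9, the DNA-binding partner of STAT2, had 36.1, 33.0 and 29.6 against 36.3, 31.97 and 40.6 (difference 0.14, SE 0.14). It shares 123 exon bases with Rnf31 (mean 18.5 FPKM) on the same strand. Irf1 shares 135 exon bases with Gm17334 (mean 14.3 FPKM) on the opposite strand. Reads in these shared bases cannot be assigned with certainty. Vehicle library 3 was the lowest vehicle library for Irf7, Irf9, Zbp1, Oas3 and Oasl1, 5 members (14.3%). It was so for 40.3% of all genes and for 29.6% of the 1738 genes of similar level.

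CXCL9, CXCL10 and CXCL11 attract activated T and NK cells through CXCR3. Cxcl10 (ENSMUSG00000034855) had 549, 380.1 and 770.2 FPKM with vehicle and 642, 377 and 586 with atorvastatin (difference -0.06, SE 0.33, limma adjusted p = 0.973). Its vehicle libraries alone spanned 2-fold, and the libraries numbered 2 were alike. Cxcl9 (ENSMUSG00000029417), next to it on chromosome 5 (92321347 to 92365485 for the 3 ligands), had 55.2, 48.0 and 55.1 FPKM against 45.1, 48.6 and 52.3 (difference -0.11, SE 0.12) and was among the steadiest members. Cxcl11, typed as a polymorphic pseudogene in the reference annotation, had 7.35, 4.61 and 10.1 FPKM against 6.88, 4.46 and 6.39 (difference -0.24, SE 0.27). The receptor gene Cxcr3 ran the other way, with 1.78, 4.53 and 2.20 FPKM against 1.61, 4.94 and 2.62 (difference 0.06, SE 0.36). It was the only member in which both libraries numbered 2 were the highest of their group, as they were for 12.9% of all genes and for the summed T cell markers.

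Guanylate-binding proteins attack the vacuoles and membranes of intracellular microbes. Gbp2 (ENSMUSG00000028270) had 320.2, 236 and 323 FPKM with vehicle and 301, 245 and 292 with atorvastatin (difference -0.06, SE 0.19), and Gbp3 had 94.98, 73.7 and 96.4 against 90.8, 69.7 and 98.9 (difference -0.04, SE 0.19). Gbp5, which also promotes inflammasome assembly, had 88.35, 64.4 and 77.4 against 81.6, 61.3 and 84.3 (difference -0.02, SE 0.185), and Gbp7 59.1, 49.5 and 52.85 against 55.3, 47.0 and 66.8 (difference 0.05, SE 0.16). All 4 genes, clustered on chromosome 3 (142493978 to 142638008), had their lowest value of each group in the libraries numbered 2. With equal sums per library the differences of Gbp2, Gbp3 and Gbp5 turned positive (0.01, 0.03 and 0.05). The median over all genes also turned positive (0.04). Their 4 limma adjusted p lay between 0.944 and 0.984.

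Immunity-related GTPases act with them on the vacuoles of intracellular parasites, with Irgm1 and Igtp as regulators and Iigp1 as an effector. Igtp (ENSMUSG00000078853, chromosome 11) had 269.5, 217 and 271 FPKM with vehicle and 249.5, 209 and 241 with atorvastatin (difference -0.11, SE 0.17). It shares 162 exon bases with Irgm2 on the same strand, and reads there cannot be assigned with certainty. Irgm1 (ENSMUSG00000046879, chromosome 11) had 165, 122 and 156 FPKM against 145, 108 and 148 (difference -0.14, SE 0.20). Iigp1 had 72.1, 38.1 and 93.0 against 77.9, 53.2 and 89.2, more than 2-fold apart within the vehicle group (difference 0.17, SE 0.35), and its difference was -0.19 without vehicle library 2.

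Upstream of the members, interferon ligand genes were near the detection limit except for Ifnb1 and Ifng. Of 20 ligand genes, 18 fell below the filter and 10 were listed at 0 in every library, 8 interferon alpha genes among them. Ifnb1 had 2.52, 1.22 and 5.02 FPKM with vehicle and 5.00, 3.03 and 3.63 with atorvastatin (difference 0.42, SE 0.36, limma adjusted p = 0.786). Ifng had 15.9, 5.61 and 18.4 FPKM against 12.5, 4.10 and 10.1 (difference -0.50, SE 0.51, limma adjusted p = 0.822). For both ligands the libraries numbered 2 were the lowest of their group, as for most members. Ifnl2, a type III interferon gene named after its values were seen, was listed at 0.24, 0.16 and 0.29 FPKM with vehicle and at 0, 0.07 and 0 with atorvastatin. The exact 2-sided permutation test gave p = 0.1, the smallest possible with 3 against 3 libraries. Ifnl3, the other type III gene listed, went the other way, at 0 in every vehicle library and 0, 0.05 and 0.05 FPKM with atorvastatin.

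Of 11 receptor, kinase and STAT genes, 10 were tested in limma and 0 passed, 0 of them at an unadjusted p under 0.05. Both libraries numbered 2 were the lowest of their group in 2 of the 10, Ifnar2 and Jak1, a share (20.0%) near that of all genes, and the highest in 4. Ifnar1 and Ifnar2, the chains of the type I receptor, had 16.9, 19.5 and 14.0 FPKM against 15.8, 17.25 and 16.45, and 24.0, 21.6 and 25.4 against 26.35, 24.9 and 27.4. Ifngr1, the ligand-binding chain for interferon gamma, had 24.95, 38.5 and 26.2 FPKM against 21.7, 36.2 and 28.4 and was thus highest in the libraries numbered 2, where Ifng was lowest. Its partner Ifngr2 was the 1 of 10 whose groups did not overlap, as in 14.4% of all genes, with 13.35, 13.3 and 12.6 against 12.2, 10.02 and 10.85 (difference -0.23, SE 0.11, limma adjusted p = 0.696). Stat2 had 50.3, 50.3 and 28.2 FPKM against 43.5, 41.7 and 48.5, and its lowest value was in vehicle library 3. The kinase genes Jak1 (difference 0.17, SE 0.15), Jak2 (-0.02, SE 0.12) and Tyk2 (0.06, SE 0.24) and the feedback inhibitor Socs1 (-0.22, SE 0.15) had overlapping groups.

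**Figure D5:**
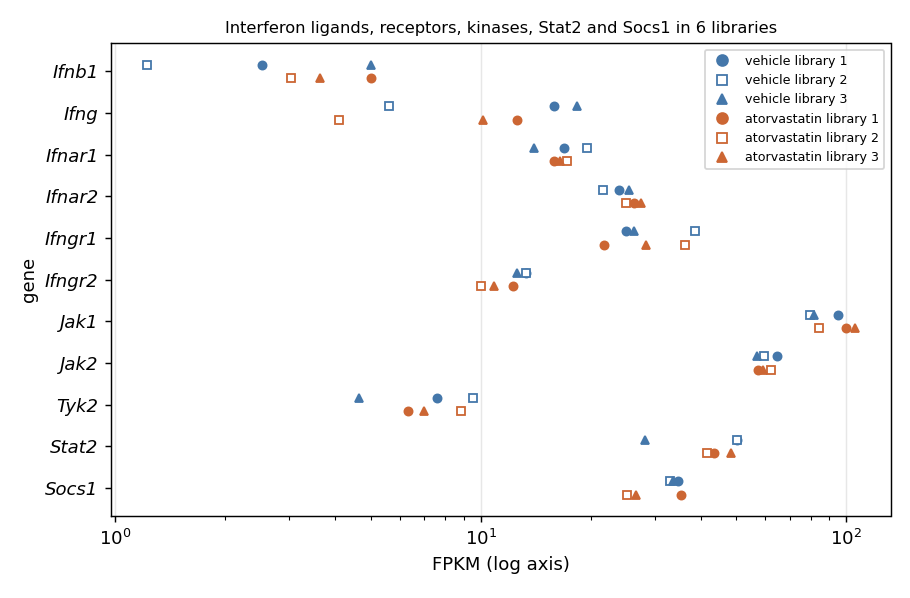
FPKM of interferon ligands, receptor chains, kinases, Stat2 and Socs1 in each library on a log axis, with open squares for the libraries numbered 2. Ifnb1, Ifng, Ifnar2 and Jak1 have the open squares at the left of both groups, and Ifnar1, Ifngr1 and Tyk2 have them at the right of both.

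Further response genes, listed separately from the members, gave no call in limma either. Of 37 tested type I response genes 27 were lower and 10 higher, with a median difference of -0.11, and 2 were at an unadjusted p under 0.05, where 7.17% of all genes were. Of 24 tested interferon-gamma response genes 13 were lower and 11 higher, with a median of -0.07, and 3 were at an unadjusted p under 0.05. The groups did not overlap in 2 of the 37 and in 5 of the 24 genes, as in 14.4% of all genes. The 5 genes at an unadjusted p under 0.05 are named here for that p, and each had a limma adjusted p of 0.693. Ifit1bl1, a gene of the IFIT cluster, had 117, 121 and 99.1 FPKM with vehicle and 74.0, 69.4 and 83.9 with atorvastatin (difference -0.56, SE 0.15). It was farther from 0 than the 3 IFIT members and did not share their low values in vehicle library 2. Ifi27l2a had 335, 293 and 376 FPKM against 266, 182 and 231 (-0.57, SE 0.20), and the GTPase gene Ifi47 had 101, 79.4 and 69.3 against 56.3, 60.1 and 56.5 (-0.51, SE 0.16). Psmb10, an immunoproteasome subunit, had 41.8, 43.6 and 35.1 against 32.6, 28.7 and 31.6 (-0.36, SE 0.13). F830016B08Rik was the only one of them higher, with 1.26, 0.85 and 0.50 FPKM against 2.16, 1.33 and 3.13 (0.76, SE 0.25).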

How the data were processed

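RNA-seq of bulk lamina propria cells gave 3 vehicle and 3 atorvastatin libraries. Values were used in FPKM, computed and deposited by the authors, per the file headers. Per the submitters' processing notes FastQC 0.11.2, Bowtie and the build mm10 were used. Quantifier, annotation and strandedness were not given in the sources used here, so reads of overlapping genes cannot be told apart. The number of fragments is unknown. In short single-exon genes low values clustered at steps, but only 26.2% to 31.9% of values lay within 0.1 of a whole step, so counts were not recovered and no count test was run.

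Symbols came from GENCODE mouse release M21, whose gene start and end matched those of 51957 of 55401 gene IDs. Positions are those of the files. The 13590 genes that reached 1 FPKM in 3 or more libraries entered limma-trend (limma 3.58.1 in R 4.3.3) on log2(FPKM + 1), with Benjamini-Hochberg adjustment over all of them and a threshold of 0.05. Differences on this scale understate changes of low genes. The fit was tested on simulated data. An exact permutation test was used for genes that did not reach the filter.

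The members and lists were chosen with earlier results of these data known, so lists are described by counts and medians and no list was tested. Values are printed for the 2 most abundant members of each role group, members at an unadjusted p under 0.05, set pathway genes (1 of them is not reported here) and list genes at an unadjusted p under 0.05. The other members are given beside them. The alternatives were a pseudocount of 0.1, no filter or one of 5 FPKM, 3 scalings, the replicate number as a block, broader classes, leaving out each library and, added after the data were seen, leaving out both libraries numbered 2.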

Additional observations from a re-analysis of the deposited data

How the results depend on the processing

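No member passed limma's threshold under any alternative, and their adjusted p ranged from 0.575 to 0.999. Over all genes 0 passed in every fit, except 1 without atorvastatin library 1 and 2 without atorvastatin library 3 (range 0 to 2 when single libraries were left out). With the replicate number as a block 0 genes passed and the median over members stayed at -0.11. Deviations of libraries sharing a number correlated at -0.11, 0.14 and -0.02, so the numbers were not taken to pair them, and the block changed no call. Genes at an unadjusted p under 0.05 split into 425 higher and 549 lower as deposited, 300 and 146 with equal sums, and 859 and 283 with equal sums without immunoglobulin genes. The median over all genes moved from -0.02 to 0.04 and 0.06 with these scalings. Broad classes gave medians of -0.13 (type I) and -0.05 (interferon gamma). Leaving out single libraries gave medians of -0.20 to 0.01 over the members, -0.27 to -0.01 in the type I class and -0.20 to 0.07 in the interferon-gamma class, with a gap between classes of -0.15 to -0.07. Differences of single genes turned sign with equal sums, and with equal sums without immunoglobulin genes, in Mx2 (0.0373 and 0.0609), Rtp4 (0.0155 and 0.0391), Cxcl10 (0.0091 and 0.0341), Gbp2 (0.0102 and 0.0352), Gbp3 (0.0331 and 0.0576) and Gbp5 (0.0478 and 0.0721). Without both libraries numbered 2 they turned in Mx2 (0.0215), Oasl2 (-0.0727), Irf1 (-0.0664), Irf7 (0.0002) and Gbp5 (0.0037). When single libraries were left out the range crossed 0 in Ifit2 (-0.4053 to 0.0245), Isg15 (-0.2906 to 0.0229), Mx1 (-0.294 to 0.0037), Mx2 (-0.2459 to 0.236), Oasl1 (-0.09 to 0.177), Oasl2 (-0.2265 to 0.3586), Irf1 (-0.197 to 0.3833), Rsad2 (-0.1241 to 0.3078), Ifi44 (-0.0111 to 0.4981), Ddx58 (-0.203 to 0.0053), Ifih1 (-0.1368 to 0.1677), Rtp4 (-0.2069 to 0.1213), Cxcl10 (-0.3173 to 0.191), Cxcr3 (-0.2535 to 0.3603), Gbp2 (-0.2057 to 0.0323), Gbp3 (-0.1599 to 0.1102), Gbp5 (-0.1393 to 0.1222), Gbp7 (-0.0733 to 0.1759), Irgm1 (-0.2756 to 0.0038) and Iigp1 (-0.1869 to 0.4467). The cause was not tested. The unknown number of fragments limits what can be said of Cxcr3, Ifi44, Cxcl11 and the ligand genes.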

Other observations

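Of 14 genes that sense nucleic acids or relay the signal upstream of interferon, 7 were lower and 7 higher with atorvastatin, with a median difference of 0.02. Their differences ran from -0.35 (Irf5, SE 0.20) to 0.28 (Tlr7, SE 0.37), and 0 were at an unadjusted p under 0.05 in limma. Of 8 inhibitors of interferon signalling 7 were lower and 1, Socs3, was higher, with a median of -0.06, and 0 were at an unadjusted p under 0.05 in limma.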
